A study of Mus musculus with 4 samples.

Results

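The genes described here are B lineage genes, a list of 31 genes that mark B cells or their precursors. A probe was taken as a member when it was no control spot and its gene name in the scanner files equalled a listed gene. This found 30 of the 31 genes, on 43 of the 55669 probes of the array. They are set against all 28285 genes that had a probe well above background on at least 1 array. The remaining gene, Mzb1, was filed under an older clone name and was found by its accession only, so it is given beside the members and not counted with them. The list was drawn up with the processed signals of these same 4 arrays known, and all differences below are therefore descriptions without a test.

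Each of the 4 arrays measured 1 group of donor cells taken back from irradiated hosts. The groups were cKO LT-HSC, WT LT-HSC, cKO MPP and WT MPP. cKO donors carried a conditional knockout of p38 alpha, the MAP kinase encoded by Mapk14, and WT donors were wild type. The driver and timing of the deletion were not given in the sources used here. All donors were male C57BL/6J (Ly5.2) mice, 10 weeks old per the labels. LT-HSC were CD34- Flt3- LSK cells, the fraction that holds long-term stem cells, and MPP were CD34+ Flt3+ LSK cells, the multipotent progenitors. LSK cells lack the markers of mature lineages and carry Sca-1 and Kit. In every group the cells were stained with the dye CFSE, given to Ly5.1 congenic hosts after 9.5 Gy, and sorted again as CFSE-positive marrow cells 16 h later. The groups therefore share the transplant, the irradiated host and the second sort. The antibodies of the lineage gate, the number of mice behind an array and the purity of the second sort were not given in the sources used here.

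B cells arise in the marrow from lymphoid progenitors. The factors E2A, EBF1 and PAX5 switch on the B cell programme in sequence, and PAX5 holds the cells in that fate. At the pre-B stage the surrogate light chain, made of the products of Vpreb1, Vpreb2 and Igll1, pairs with the new heavy chain and with CD79A and CD79B to form the pre-B receptor. Later cells carry a complete B cell receptor and gain CD20, CD21, CD23, the BAFF receptor and CXCR5, with which they survive and settle in follicles. Stem cells and multipotent progenitors are not known for most of these transcripts, although Bcl11a, Btk, Cd37 and Cd38 are also used by other blood cells, and Spib and Ly6d by plasmacytoid dendritic cells. The members were split into 7 early genes (Vpreb1, Vpreb2, Vpreb3, Igll1, Ebf1, Blnk and Ly6d), 10 mature genes (Ms4a1, Cr2, Fcer2a, Tnfrsf13b, Tnfrsf13c, Cxcr5, Fcrl1, Bank1, Cd22 and Ralgps2) and 13 genes used across stages.

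The share of spots well above background ran from 62.5% to 70.5% over the arrays, and 0 spots were saturated. The brighter Mapk14 probe had a signal of 912 on the cKO LT-HSC array and 1447 on the WT LT-HSC array. It had 1024 on the cKO MPP array and 951 on the WT MPP array. The dimmer Mapk14 probe had 490.5 on the cKO LT-HSC array and 474 on the WT LT-HSC array. It had 595 on the cKO MPP array and 621 on the WT MPP array. After the scaling described below, cKO minus WT in LT-HSC was -0.58 (log2) at the brighter probe and 0.13 at the dimmer. Whether these probes lie in the deleted part is not stated in the labels. Of the genes behind the labelled gate, Kit had 2763 and 2956 on the cKO and WT LT-HSC arrays and 2658 and 3737 on the cKO and WT MPP arrays. Ly6a, which encodes Sca-1, had 4287 and 4387 on the cKO and WT LT-HSC arrays and 860 and 939 on the cKO and WT MPP arrays. The brightest Flt3 probe had 189 and 177 on the cKO and WT LT-HSC arrays and 365 and 515 on the cKO and WT MPP arrays. Its other probes were higher in LT-HSC, by 0.70 and 0.63 (log2) in cKO and by 0.22 and 0.88 in WT. Cd34, by which the sort parted the populations, had 3601 on the cKO LT-HSC array and 1169 on the WT LT-HSC array, and 6331 on the cKO MPP array and 7734 on the WT MPP array, so the LT-HSC array was the lower one in each genotype, although cKO LT-HSC stood above WT LT-HSC by 1.71 (log2). Signals are processed intensities in arbitrary units, not scaled between arrays. The 75th percentile over the spots of the array was 203.4 for cKO LT-HSC, 218.0 for WT LT-HSC, 177.9 for cKO MPP and 181.2 for WT MPP. Log2 differences are taken after each array was scaled to the 75th percentile of its probe averages, which differs slightly from these values. The error after ± is derived from the error that Feature Extraction gives for each spot. It covers the spot and not the cells, the sort or the RNA, and with 1 array per group no difference has a replicate check. A gene well above background on only 1 array of a pair has a bound, written as at least.

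The 250 bases before the annotated start of transcription are shown for 3 members that were far brighter in LT-HSC than in MPP, 2 of them pre-B receptor genes, and for Cr2, a mature gene that was alike in both LT-HSC genotypes. The sequences are those of RefSeq on GRCm38.p6, 5′ to 3′ on the gene's strand. Capitals mark the E-box CAGGTG or its reverse complement, a sequence that E proteins such as E2A can bind. They are chr16:16863986-16864235 (minus strand) for Igll1, chr16:16869256-16869505 (minus strand) for Vpreb1, chr7:24897247-24897496 (plus strand) for Cd79a and chr1:195176720-195176969 (minus strand) for Cr2.
Igll1: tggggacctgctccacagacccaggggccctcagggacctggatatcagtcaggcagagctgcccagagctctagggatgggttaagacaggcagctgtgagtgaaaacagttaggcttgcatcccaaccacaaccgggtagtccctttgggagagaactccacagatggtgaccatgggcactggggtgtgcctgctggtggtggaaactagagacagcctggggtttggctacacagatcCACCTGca
Vpreb1: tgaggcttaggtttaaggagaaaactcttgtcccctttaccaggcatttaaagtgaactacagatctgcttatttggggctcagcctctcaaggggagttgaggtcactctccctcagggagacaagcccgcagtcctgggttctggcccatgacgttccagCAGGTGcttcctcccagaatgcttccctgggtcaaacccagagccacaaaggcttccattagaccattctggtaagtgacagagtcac
Cd79a: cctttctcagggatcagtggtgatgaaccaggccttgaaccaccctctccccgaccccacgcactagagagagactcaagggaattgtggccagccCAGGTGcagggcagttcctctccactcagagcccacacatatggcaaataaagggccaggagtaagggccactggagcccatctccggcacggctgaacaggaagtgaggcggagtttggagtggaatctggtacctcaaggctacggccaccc
Cr2: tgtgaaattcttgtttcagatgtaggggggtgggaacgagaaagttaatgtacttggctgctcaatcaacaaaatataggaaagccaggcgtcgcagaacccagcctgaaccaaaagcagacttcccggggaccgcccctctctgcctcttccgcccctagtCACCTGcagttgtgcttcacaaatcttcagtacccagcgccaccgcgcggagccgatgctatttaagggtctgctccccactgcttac

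A promoter sequence was found for 25 of the 30 members. The E-box CAGGTG was present, on either strand, within 250 bases before the start of 13 of these 25 members (52.0%), and of 19.4% of the 27025 genes with a promoter. It lay 154 bases before the start in Cd79a, 88 in Vpreb1, 88 in Cr2 and 8 in Igll1, counted to the first base of the match. The core CCCNNGGG, part of the sequence that EBF1 binds, was present in 4 of the 25 members (16%, against 13.4% of all genes), among them Igll1 and Spib. The octamer ATTTGCAT, the target of Oct factors and of the Pou2af1 product with them, was present in Blnk and Vpreb3 (8.0%, against 1.81%). The ETS sequence GGAAGT was present in 12 of the 25 (48.0%, against 22.2%). Both strands were searched for each motif and matches of different motifs were allowed to overlap. A match is a description of letters only. The 13 members with the E-box had a median cKO minus WT difference of -0.53 in LT-HSC, from -2.20 to 0.89. The 12 without it had one of -1.18, from -2.25 to 0.04, so the ranges overlapped between -2.20 and 0.04. Members with the E-box include early genes (Blnk, Igll1, Vpreb1 and Vpreb2) and mature ones (Bank1, Cd22, Cr2, Fcer2a, Ralgps2 and Tnfrsf13c). The gap between the medians was not tested and was not separated from stage.

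The array probes of Igll1 and Pax5, members with some of the largest genotype differences, are given because the result rests on these oligonucleotides. Positions are on mm9, as the scanner files give them. The Igll1 probe lies at chr16:16861104-16861163 on the minus strand. The brighter Pax5 probe lies at chr4:44658421-44658480 and the dimmer one at chr4:44550354-44582908, both on the minus strand. The dimmer probe has 60 bases over a span of 32555 bases in the genome, so it crosses an exon junction. No base is marked in capitals.
Igll1 probe: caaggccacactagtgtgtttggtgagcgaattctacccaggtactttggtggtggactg
Pax5 brighter probe: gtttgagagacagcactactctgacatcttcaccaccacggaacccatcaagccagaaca
Pax5 dimmer probe: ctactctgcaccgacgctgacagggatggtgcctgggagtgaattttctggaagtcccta

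The first comparison asked how B lineage transcripts differed between knockout and wild-type LT-HSC recovered after transplant. All 30 members were well above background on both LT-HSC arrays. On the cKO array 14 of the 30 were lower by 2-fold or more and 0 were higher, while 8.26% of all genes measured were lower and 10.7% higher by that fold. The median over the members was -0.95 (log2), against 0.12 over all genes. The pre-B receptor genes and the B cell transcription factors stood lowest, and several receptors of mature B cells were nearly equal on both arrays. Fewer cells of the B lineage and less of these RNAs per cell cannot be told apart in bulk RNA.

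Igll1, which encodes the lambda 5 part of the surrogate light chain, had a signal of 101 on the cKO LT-HSC array and 491 on the WT LT-HSC array, a difference of -2.20 ± 0.21, or 4.60-fold lower in cKO. Vpreb1, its partner, had 378 on the cKO LT-HSC array and 1447 on the WT LT-HSC array (-1.85 ± 0.20). Vpreb2, a close copy of Vpreb1, had 67.0 on the cKO LT-HSC array and 199.5 on the WT LT-HSC array (-1.49 ± 0.22). The scanner files list RefSeq transcripts of both Vpreb1 and Vpreb2 for that probe, so it cannot tell the copies apart. Vpreb3, a related protein of the secretory pathway in B cells, had 83.5 on the cKO LT-HSC array and 227 on the WT LT-HSC array (-1.36 ± 0.21). The probes of all 4 genes were thus lower on the cKO array by over 2-fold, with a median of -1.67. Vpreb2 is counted as a member throughout, although its probe may read Vpreb1.

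Among the transcription factors, Bach2, a repressor that supports pre-B cells and later class switching, had the lowest difference of all members. Its signal was 179 on the cKO LT-HSC array and 904 on the WT LT-HSC array (-2.25 ± 0.21), and its second probe stood at -1.63. Pax5, the factor of B cell commitment, had 706 on the cKO LT-HSC array and 2845 on the WT LT-HSC array (-1.93 ± 0.20). The exon-crossing probe of Pax5 printed above had 196 and 746 on the same arrays (-1.85), so both probes gave nearly the same difference. Spib, an ETS factor of B cells and plasmacytoid dendritic cells, had 2111 on the cKO LT-HSC array and 5299 on the WT LT-HSC array (-1.25 ± 0.20). Pou2af1, the co-activator of Oct factors in B cells, had 3463 on the cKO LT-HSC array and 7894 on the WT LT-HSC array (-1.11 ± 0.20). Ebf1, the factor upstream of Pax5, was dim on both arrays, with 20.9 on the cKO LT-HSC array and 44.8 on the WT LT-HSC array (-1.02 ± 0.30). Bcl11a, a zinc finger factor that lymphoid progenitors need, had 725 on the cKO LT-HSC array and 1375 on the WT LT-HSC array (-0.84 ± 0.20). Its second probe stood at -0.61, while its dimmest was at least 1.26-fold higher in cKO. At their brightest probes all 6 factors were lower on the cKO array, 5 of them by 2-fold or more.

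The chains and kinases of the B cell receptor were lower by smaller amounts. Cd79a, the Ig-alpha chain, had 2569.7 on the cKO LT-HSC array and 5306 on the WT LT-HSC array (-0.96 ± 0.20). The scanner files place this probe on chromosome 12 (mm9), although it is named Cd79a and the gene lies on chromosome 7. The other Cd79a probe is placed on chromosome 7 and stood at -1.18, past 2-fold. Cd79b, the Ig-beta chain, had 618 on the cKO LT-HSC array and 1358 on the WT LT-HSC array (-1.05 ± 0.20). Blnk, the adaptor that couples the receptor to its downstream enzymes, had 264 on the cKO LT-HSC array and 592 on the WT LT-HSC array (-1.08 ± 0.20). These 3 lay close to a 2-fold difference, as did Bank1, a scaffold of receptor signalling, with 235 on the cKO LT-HSC array and 473 on the WT LT-HSC array (-0.93 ± 0.20). The Src family kinase gene Blk differed by less than its error, with 69.4 on the cKO LT-HSC array and 83.1 on the WT LT-HSC array (-0.18 ± 0.22). Btk, the kinase gene mutated in X-linked agammaglobulinaemia, had 443 on the cKO LT-HSC array and 848 on the WT LT-HSC array (-0.85 ± 0.20), but its dimmer probe went the other way (0.52). Ralgps2, a Ral exchange factor gene high in B cells, was the 1 member higher by over 1.5-fold, with 105 on the cKO LT-HSC array and 60.0 on the WT LT-HSC array (0.89 ± 0.07, over 10 spots).

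Surface molecules were split. Cd38, an ectoenzyme that is also on stem cells, had 215 on the cKO LT-HSC array and 804 on the WT LT-HSC array (-1.82 ± 0.21). Fcrl1, an Fc receptor-like molecule of mature B cells, had 35.5 on the cKO LT-HSC array and 100.4 on the WT LT-HSC array (-1.42 ± 0.24). These 2 were the surface genes lower by 2-fold or more. Cd37, a tetraspanin, had 4007 on the cKO LT-HSC array and 6018 on the WT LT-HSC array (-0.50 ± 0.20), with -1.13 at its other probe. Ms4a1, which encodes CD20, had 181 on the cKO LT-HSC array and 271 on the WT LT-HSC array (-0.50 ± 0.21). The other 4 were nearly equal on both arrays. Cd22, an inhibitory co-receptor, had 4188 on the cKO LT-HSC array and 4343 on the WT LT-HSC array (0.03 ± 0.20). Cr2, the complement receptor CD21, had 1754 on the cKO LT-HSC array and 1845 on the WT LT-HSC array (0.01 ± 0.20). Cd72, another inhibitory receptor, had 237 on the cKO LT-HSC array and 245 on the WT LT-HSC array (0.04 ± 0.21). Fcrla, an intracellular Fc receptor-like protein of B cells, had 102 on the cKO LT-HSC array and 103 on the WT LT-HSC array (0.07 ± 0.21). All 4 differences were smaller than their errors.

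Of the receptors for chemokine, cytokine and IgE, Cxcr5, which guides B cells to follicles, had 27.8 on the cKO LT-HSC array and 72.8 on the WT LT-HSC array (-1.31 ± 0.25). Tnfrsf13b, the receptor TACI, had 355 on the cKO LT-HSC array and 647 on the WT LT-HSC array (-0.78 ± 0.20), and its 2 other probes stood at -1.64 and -0.25. Cxcr5 was thus lower by over 2-fold, and TACI by an amount that depended on the probe. Fcer2a, the IgE receptor CD23, had 321 on the cKO LT-HSC array and 491 on the WT LT-HSC array (-0.53 ± 0.20). Tnfrsf13c, the BAFF receptor, had 1323 on the cKO LT-HSC array and 1613 on the WT LT-HSC array (-0.20 ± 0.20). Ly6d, a surface marker of lymphoid progenitors bound for the B lineage, had 885 on the cKO LT-HSC array and 1434 on the WT LT-HSC array (-0.61 ± 0.20). Mzb1, a chaperone of antibody secretion, had 785 on the cKO LT-HSC array and 745 on the WT LT-HSC array (0.16 ± 0.07) and was not lower. Of the 11 members with more than 1 probe, 7 had the same sign at every probe in this comparison.

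**Figure D1:**
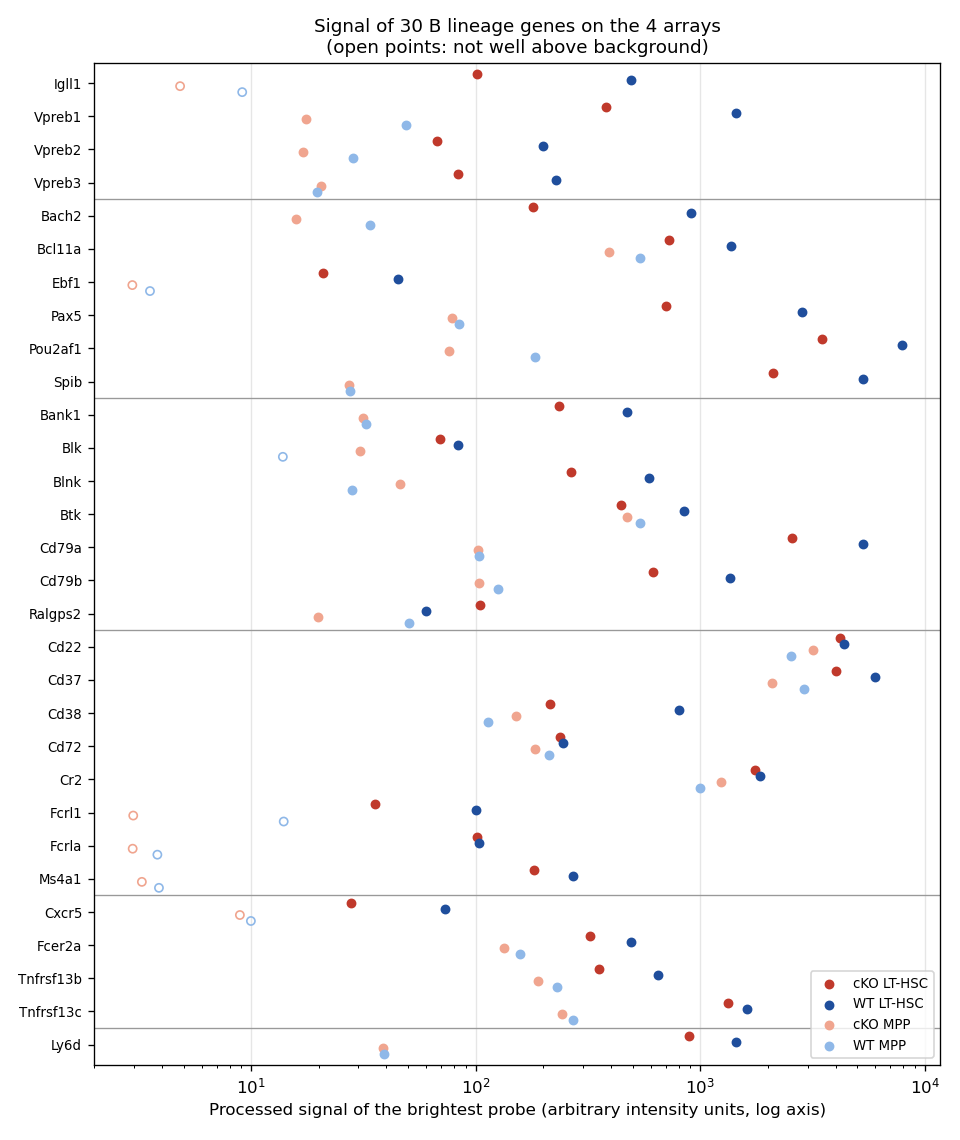
Processed signal (arbitrary intensity units, log axis) of the brightest probe of each of the 30 B lineage genes on the 4 arrays, grouped by role with the pre-B receptor genes at the top. Filled points are well above background and open points are not. The red cKO LT-HSC points lie left of the dark blue WT LT-HSC points for the pre-B receptor genes and nearly on them for Cd22, Cd72, Cr2 and Fcrla.

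Set by stage, the early members stood lower than the mature ones on the cKO LT-HSC array. The 7 early genes had a median difference of -1.36, from -2.20 (Igll1) to -0.61 (Ly6d), and 6 of them were lower by 2-fold or more. The 10 mature genes had a median of -0.51, from -1.42 (Fcrl1) to 0.89 (Ralgps2), and 2 of them, Fcrl1 and Cxcr5, were lower by that fold. The 13 genes used across stages had a median of -0.96, and 6 were lower by that fold. Of all genes measured, 8.26% were lower by that fold. The ranges of the early and the mature genes overlapped between -1.42 and -0.61, and no test of the gap between stages was made. The stages also differed in how far LT-HSC exceeded MPP. In WT that difference ran from at least 1.28 to 4.94 over early genes, and from -0.0049 to at least 3.87 over mature ones. Cd22 and Cr2, nearly equal between the LT-HSC genotypes, were bright in MPP too. Cd22 had 3173 on the cKO MPP array and 2522 on the WT MPP array, and the brighter Cr2 probe had 1235 and 995. Whether the gap follows stage or this difference was not tested. The mature median was -0.20 when only probes well above background on all 4 arrays were taken, which leaves out Ms4a1, Cxcr5 and Fcrl1. The early median was -0.97 with normexp background correction and quantile normalization.

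**Figure D2:**
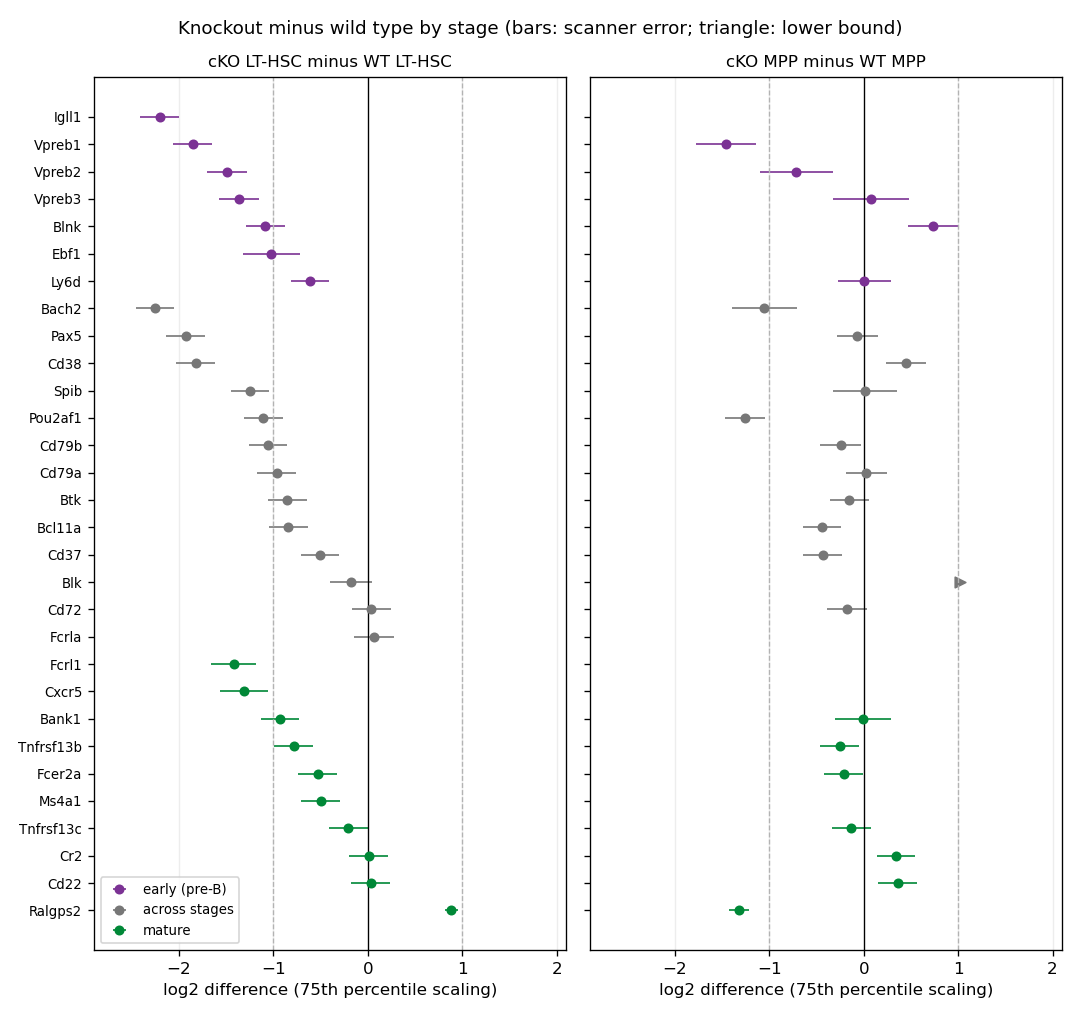
log2 differences of cKO minus WT for each B lineage gene in LT-HSC (left) and MPP (right), ordered by stage, with the scanner error as bars, dashed lines at 2-fold and a triangle for the lower bound of Blk. In LT-HSC the 7 early genes lie between -2.20 and -0.61 and the 10 mature ones between -1.42 and 0.89, and genes without a point in MPP were not well above background there.

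The second question was how the B lineage genes differed between LT-HSC and MPP of the same genotype. In WT, 24 of the 30 members were higher on the LT-HSC array by 2-fold or more and 0 were lower, beside 10.7% of all genes higher and 19.0% lower. In cKO, 19 were higher on the LT-HSC array and 0 lower, beside 8.03% of all genes higher and 6.77% lower. Of genes dim on the MPP array, 7 entered the WT count by a bound. Among members measured on both arrays, 17 of 23 were higher in LT-HSC of WT and 15 of 24 in cKO. The WT LT-HSC array also enters the comparison of genotypes above, with the opposite sign, so the larger differences in WT and the lower values of cKO LT-HSC are not separate observations.

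Spib had the largest difference in both genotypes. Its signal was 27.2 on the cKO MPP array and 27.4 on the WT MPP array, where the lowest signals called well above background were 12.8 for cKO and 15.4 for WT. LT-HSC stood 67.3-fold higher in cKO and 161-fold higher in WT. Cd79a had 103 on the cKO MPP array and 103 on the WT MPP array, and LT-HSC exceeded MPP by 4.44 ± 0.21 in cKO and 5.43 ± 0.21 in WT. Its chromosome 7 probe gave 5.08 in cKO and 5.47 in WT. Pou2af1 had 75.7 on the cKO MPP array and 184 on the WT MPP array, with differences of 5.31 ± 0.21 in cKO and 5.16 ± 0.21 in WT. It was the 1 transcription factor with a slightly larger difference in cKO. Ly6d had 38.4 on the cKO MPP array and 39.1 on the WT MPP array, with differences of 4.32 ± 0.24 in cKO and 4.94 ± 0.25 in WT.

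The pre-B receptor genes were higher in LT-HSC of both genotypes. Vpreb1 had 17.5 on the cKO MPP array and 48.9 on the WT MPP array, with differences of 4.23 ± 0.30 in cKO and 4.62 ± 0.23 in WT. Vpreb3 had 20.3 on the cKO MPP array and 19.7 on the WT MPP array, with 1.83 ± 0.30 in cKO and 3.27 ± 0.34 in WT. Vpreb2 differed by 1.78 ± 0.34 in cKO and 2.56 ± 0.28 in WT. Igll1 was not well above background on either MPP array, and LT-HSC was at least 6.84-fold higher in cKO and at least 26.6-fold higher in WT. Ebf1 was likewise bounded, at least 1.42-fold higher in cKO and at least 2.43-fold in WT. These bounds are set by the dim end of the MPP arrays and carry no upper limit.

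Pax5 differed by 2.96 ± 0.21 in cKO and 4.83 ± 0.21 in WT, and Bach2 by 3.29 ± 0.32 in cKO and 4.49 ± 0.25 in WT. Blnk differed by 2.32 in cKO and 4.14 in WT, and Cd79b by 2.37 in cKO and 3.18 in WT. Ms4a1 was at least 12.3-fold higher in LT-HSC of cKO and at least 14.7-fold in WT. Fcrla was at least 6.90-fold higher in cKO and at least 5.57-fold in WT, Fcrl1 at least 2.41-fold in cKO and at least 5.43-fold in WT, and Cxcr5 at least 1.89-fold in cKO and at least 3.94-fold in WT. Mature genes were thus among those higher in LT-HSC of both genotypes, as was Bank1 (2.69 in cKO and 3.61 in WT) and Tnfrsf13c (2.24 in cKO and 2.31 in WT). The 1 other bound was that of Blk in WT, at least 4.50-fold, with 0.98 measured in cKO.

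A smaller group, Cd72, Cd22, Btk, Cr2 and Cd37, differed by less than 2-fold between the populations of both genotypes at the brightest probe. Cd72 differed by 0.17 in cKO and -0.05 in WT, Cd22 by 0.19 in cKO and 0.52 in WT, and Btk by -0.30 in cKO and 0.40 in WT. All 3 were well above background on all 4 arrays. The other Btk probe, also above background throughout, gave -0.26 in cKO and -1.64 in WT, so it was lower in LT-HSC. Cr2 differed by 0.30 in cKO and 0.63 in WT at its brighter probe. The dimmer Cr2 probe gave 3.42 in cKO and 1.44 in WT, so its probes did not share one size. Cd37 differed by 0.73 in cKO and 0.80 in WT. Fcer2a passed 2-fold in both genotypes, with 1.06 in cKO and 1.38 in WT. Bcl11a (0.69 in cKO and 1.09 in WT) and Tnfrsf13b (0.70 in cKO and 1.23 in WT) passed it in WT only. Other probes went the opposite way. In cKO the 2 other Tnfrsf13b probes gave -0.38 and -1.40, against 2.18 and 0.36 in WT. The dimmest Bcl11a probe gave -0.73 in cKO and was at least 1.73-fold lower in LT-HSC of WT. Cd38 and Ralgps2 went apart. Cd38 differed by 0.30 in cKO and 2.56 in WT, and Ralgps2 by 2.20 in cKO and -0.0049 in WT.

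By stage, the early genes had a median of 2.32 in cKO and 4.14 in WT, and the mature genes one of 1.16 in cKO and 1.68 in WT. Over all members the median was 2.01 in cKO and 2.52 in WT, against -0.05 and -0.16 over all genes. Bounds stand at their smallest size in these medians. With normexp and quantile normalization, which adds an offset and shrinks differences of dim probes, the medians over all members were 0.92 in cKO and 1.52 in WT.

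**Figure D3:**
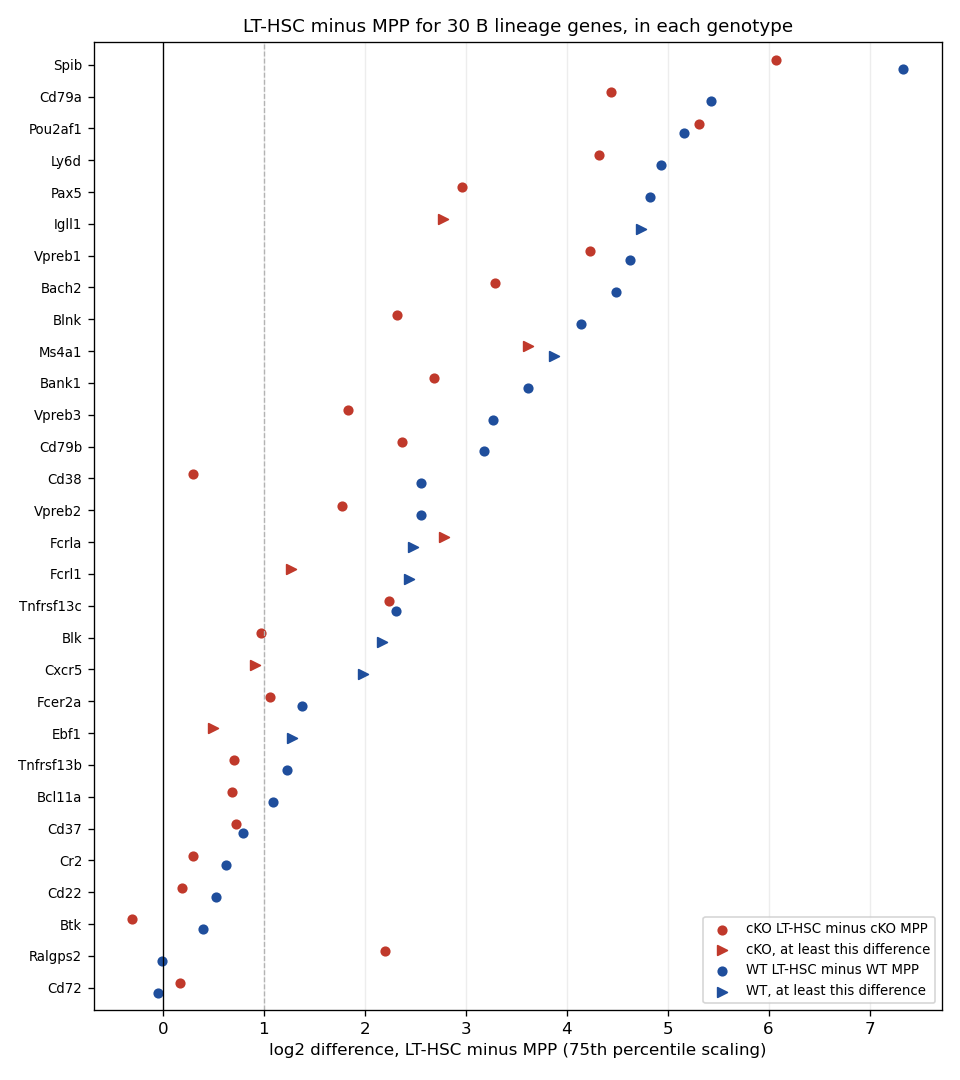
log2 differences of LT-HSC minus MPP for the 30 B lineage genes in cKO (red) and WT (blue), with triangles where MPP was not well above background and the value is a lower bound. Spib reaches 6.07 in cKO and 7.33 in WT, and the brightest probes of Cd72, Cd22, Btk and Cr2 lie below the dashed 2-fold line in both.

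In MPP few members differed by 2-fold between genotypes at their brightest probe. On the cKO array 24 of the 30 were well above background, and on the WT array 23. Ebf1, Igll1, Fcrla, Fcrl1, Ms4a1 and Cxcr5 were not well above background on either MPP array and have no difference. Of the other 24, 4 were lower on the cKO array by 2-fold or more and 1 was higher by a bound, beside 2.65% of all genes lower and 2.43% higher. The median was -0.14, against -0.05 over all genes.

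The 4 lower genes were Vpreb1 with 17.5 on the cKO MPP array and 48.9 on the WT MPP array (-1.46 ± 0.32), Ralgps2 with 19.7 on the cKO MPP array and 50.3 on the WT MPP array (-1.32 ± 0.10), Pou2af1 with 75.7 on the cKO MPP array and 184 on the WT MPP array (-1.26 ± 0.22) and Bach2 with 15.9 on the cKO MPP array and 33.6 on the WT MPP array (-1.05 ± 0.35). All but Pou2af1 had a signal within 2-fold of the lowest well above background on the cKO array, which was 12.8. Blk was the higher one, with 30.6 on the cKO MPP array and 13.8 on the WT MPP array, at least 2.02-fold. Cd79a (0.03 ± 0.22), Spib (0.02 ± 0.34), Pax5 (-0.07 ± 0.22) and Ly6d (0.01 ± 0.28) differed by less than their error. The second probe of Cd79a stood at -0.79, and the 2 probes of Tnfrsf13c at -0.13 and 1.51. The probes of Cr2 stood at 0.34 and -1.97, and those of Tnfrsf13b at -0.25, 0.92 and 1.51. Of the 10 members with a value at 2 or more probes, 5 had one sign at every probe, so directions in MPP depended on the probe for the other 5. Early genes had a median of 0.01 over 5 with a value, and mature genes one of -0.13 over 7.

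Other genes of the B lineage, a list of 32 that are no members, had smaller differences at the median. In LT-HSC 10 of them were lower and 2 higher on the cKO array by 2-fold or more, beside 8.26% of all genes lower and 10.7% higher. The median was -0.27, and 3 of the 32 values were bounds. Il7r, the receptor chain that pre-B cells need for growth, had 277 on the cKO LT-HSC array and 883 on the WT LT-HSC array (-1.59 ± 0.20) and was not well above background in MPP. The largest differences of the list were those of the Wnt effector gene Lef1 (-3.30), the inhibitory lectin gene Siglecg (-2.50), the kinase gene Lyn (-2.02) and the co-stimulatory ligand gene Cd86, at least 5.50-fold higher. The other gene higher by 2-fold was Fcgr2b, an inhibitory Fc receptor gene (1.28). In MPP 4 of 27 genes with a value, among them Rag2, Lef1 and Lyn, were lower on the cKO array by that fold. In the other direction 0 were higher (median -0.00061), beside 2.65% of all genes lower and 2.43% higher. Fcgr2b and Rag2 are named after their values were seen. Between populations 16 of 31 were higher in LT-HSC of cKO and 0 lower, beside 8.03% of all genes higher and 6.77% lower. In WT 17 of 31 were higher in LT-HSC and 2 lower, beside 10.7% of all genes higher and 19.0% lower.

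Immunoglobulin and plasma cell genes were not lower by 2-fold on the cKO LT-HSC array. Of 8 immunoglobulin genes on the array 5 were well above background, and none of these 5 differed by 2-fold between the LT-HSC genotypes (median -0.16). The variable heavy chain probe Igh-VJ558 had 29543 on the cKO LT-HSC array and 34948 on the WT LT-HSC array, and 410.4 on the cKO MPP array and 223 on the WT MPP array, a difference of -0.16 ± 0.20 in LT-HSC. Jchain, which links secreted antibody into polymers, had 5469 on the cKO LT-HSC array and 4376 on the WT LT-HSC array, and 46.2 on the cKO MPP array and 40.7 on the WT MPP array (0.40 ± 0.20 in LT-HSC). In LT-HSC against MPP, Igh-VJ558 was 62.4-fold higher in cKO and 131-fold in WT, and Jchain 103-fold in cKO and 89.8-fold in WT. Variable region genes are near copies of each other, and the probe may read several. Of the 7 plasma cell genes, which include Jchain and Mzb1, 0 were lower and Sdc1, the syndecan CD138, was higher by 2-fold (1.04), with a median of 0.16. Of all genes, 8.26% were lower and 10.7% higher by 2-fold in LT-HSC. With lists this short, the immunoglobulin and plasma cell counts cannot be told apart from those shares.

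Markers of some other blood cells were lower beside the members. Of 11 measured plasmacytoid dendritic cell genes of 12 listed, 6 were lower on the cKO LT-HSC array by 2-fold or more and 0 higher (median -1.02). Their summed signal was 18105 on the cKO LT-HSC array and 32675 on the WT LT-HSC array, and 7627 on the cKO MPP array and 7658 on the WT MPP array. Klk1 stood at -2.18, Ccr9 at -1.31 and Lair1 at -1.20, and Spib is in this list too. Siglech, a defining receptor of these cells, was nearly the same on all arrays, with 5099 on the cKO LT-HSC array and 5526 on the WT LT-HSC array, and 4309 on the cKO MPP array and 4689.6 on the WT MPP array. Of 13 measured T and NK cell genes of 14 listed, 4 were lower and 0 higher by 2-fold (median -0.23), with a summed signal of 14602 on the cKO LT-HSC array and 17461 on the WT LT-HSC array, and 7087 on the cKO MPP array and 7266 on the WT MPP array. Klrb1c stood at -1.90, Zap70 at -1.61, Gzma at -1.39 and Cd3g at -1.12, while the T cell receptor chain gene Cd3e stood at -0.23. Of the 13, 8 were lower by any amount and 5 higher. The highest was the NK receptor gene Ncr1 (0.81), named after its value was seen. In WT LT-HSC, against WT MPP, 10 of the 11 and 9 of the 13 were higher by 2-fold, and in cKO 8 and 9. The shares of all genes were 10.7% in WT and 8.03% in cKO. The part of other cells in the values of the B lineage genes was not tested. The stem and progenitor genes, 12 of 12 measured, had a median of 0.32 in the LT-HSC genotypes, with 3 higher and 1 lower by 2-fold. These were Cd34 (1.71), Procr (1.31) and Cd48 (1.01), and Mecom (-2.70). Beside these lists, 8.26% of all genes were lower and 10.7% higher by 2-fold on the cKO LT-HSC array.

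**Figure D4:**
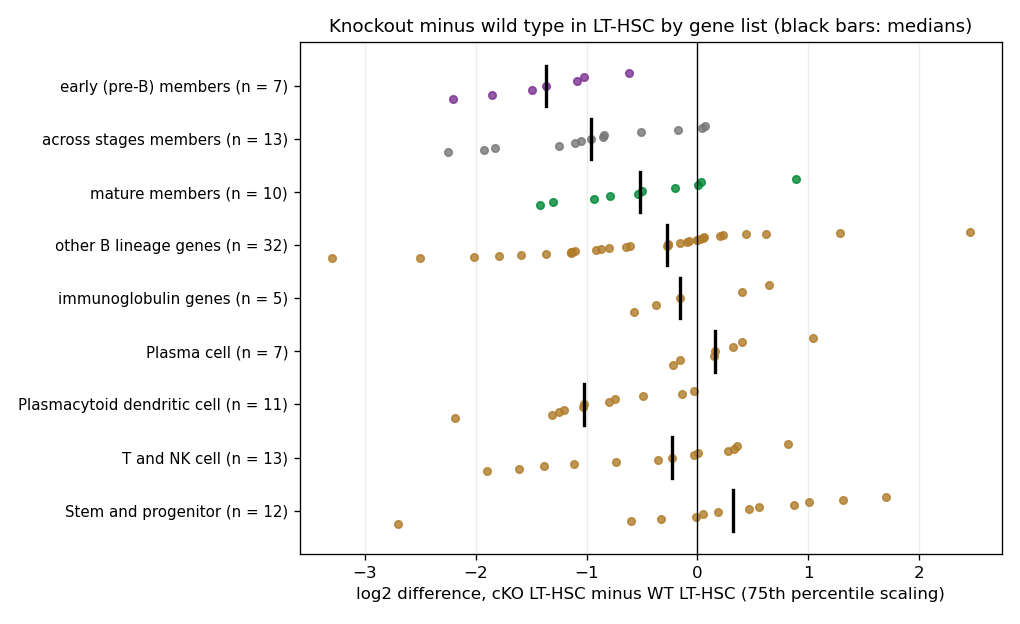
log2 differences of cKO LT-HSC minus WT LT-HSC for the genes of each list with a value, with black bars at the list medians and with bounds drawn as points. The early members have a median of -1.36, the mature ones -0.51, the immunoglobulin genes -0.16 and the plasma cell genes 0.16.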

How the data were processed

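RNA of CFSE-positive cells from 4 groups, 1 array each, was hybridised to 1-colour (Cy3) Agilent arrays on 1 slide. The deposited scanner tables hold spot intensities that the file headers credit to Feature Extraction 10.7.3.1 and the submitters' processing notes to 9.5.3. The flags, a score of 0 or 1 per spot in the deposited tables, mark outliers, saturation and spots that are well above background. The authors' series table holds a ratio per probe, centred near 100, with column medians of 97.5 (cKO LT-HSC), 91.9 (WT LT-HSC), 102.5 (cKO MPP) and 107.3 (WT MPP). Set against the scanner values, its differences between arrays correlated at r = 1.00000 over the probes and ran in the same direction, and its scaling rule remained unknown.

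Outlier spots (137 to 151 of 59305 per array) were left out. The log2 signal was averaged per probe and set against the array's 75th percentile. A probe was well above background where more than 50% of its spots were, and the brightest such probe stood for its gene. Where 1 array of a pair was dim, the difference is a bound against whichever is higher, the dim value or the lowest signal that was well above background on that array. Differences of 2-fold (log2 of 1) or more were counted. No test was made, since each group had 1 array and the members and all lists were chosen with earlier results of these data known. All members are named. Of other lists, at most the 4 genes with the largest difference and the defining markers are named, with stated exceptions. Names were matched to RefSeq by accession or symbol, and promoters came from RefSeq GRCm38.p6. The 7 alternatives used R 4.3.3 with limma 3.58.1 for normexp (offset 50) and quantile normalization. Other steps used Python 3.11.15. As a check of the arithmetic, known changes were added to values of the cKO LT-HSC array and read back, and bounds were computed on made-up values. The flags, the choice of probe, the matching of names and the motif search were not tested. The precision is limited by the number of arrays.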

Additional observations from a re-analysis of the deposited data

Results flagged for a closer look

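In 3 members the cKO array stood on opposite sides of the WT array in the LT-HSC and the MPP pair, each time by more than 2 scanner errors. Blnk, the receptor adaptor gene, had a cKO minus WT difference of -1.08 in LT-HSC and 0.74 in MPP. Ralgps2, the Ral exchange factor gene, had 0.89 in LT-HSC and -1.32 in MPP. Cd38, the ectoenzyme gene, had -1.82 in LT-HSC and 0.44 in MPP. With 1 array per group the difference between the populations was not tested. The share of all genes that meet the same rule was not counted, so the 3 are no result about the members as a group.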

How the results depend on the processing

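No paired analysis was possible because each group has 1 array. Of 140 values over the members as a group (medians by stage and counts at 2-fold, each under 7 alternatives), 119 stayed close to those given above and 21 moved. The 119 are not separate checks, since part of this agreement is built in. Dropping the filter moved no cKO minus WT value in LT-HSC, where every member was well above background on both arrays. The authors' series table repeats the scanner differences almost exactly. Taking the mean of the probes leaves members with 1 probe unchanged. The early median of cKO minus WT in MPP, 0.01, has no stable sign: it lay between -0.23 and 0.07 and was below 0 under 4 of the 7. With normexp and quantile normalization, cKO minus WT in LT-HSC had an early median of -0.97 and 9 members lower at 2-fold, and in MPP 0 lower and 0 higher. LT-HSC minus MPP then had medians of 0.92 in cKO and 1.52 in WT over all members, 1.03 and 2.80 over early ones, and 0.71 and 1.06 over mature ones. The offset of 50 shrinks differences of dim probes by construction. With only probes well above background on all arrays, the mature median of cKO minus WT in LT-HSC was -0.20 and that of WT LT-HSC minus MPP 1.23, and 0 members were higher in cKO MPP, since the dim genes drop out. With no filter, or from the authors' series table, dim genes stand at their measured value and not at a bound. The medians of LT-HSC minus MPP were then 2.28 in cKO over all members, 2.61 over early and 1.82 over mature ones, and 2.90 in WT over all members. The median of all genes in WT LT-HSC minus MPP was 0.01 when the percentile was taken over probes detected on all arrays, against -0.16. That in cKO LT-HSC minus MPP was 0.07, against -0.05. Signal over background limits the MPP values, where 6 members were dim on both arrays.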

Other observations

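All 8 macrophage genes were higher on the cKO MPP array than on the WT MPP array by 2-fold or more, with a median of 1.44 and a range from 1.03 (Adgre1) to 1.82 (C1qc, a complement chain). In LT-HSC 7 of the 8 had a value, with a median of 0.73, 2 higher and 1 lower in cKO. Siglec1, the sialoadhesin of resident macrophages, was at least 10.8-fold higher in cKO, and the adhesion molecule gene Vcam1 stood at -4.32. LT-HSC were lower than MPP for these genes, with medians of -2.37 in cKO and -1.21 in WT. Of 9 neutrophil genes 0 differed by 2-fold between the LT-HSC genotypes (median 0.25), and 2, Ltf and S100a8, were higher in cKO MPP (median 0.68). Of 8 erythroid genes 6 had a value, with a median of -0.62 in LT-HSC, where Epor and Slc4a1 were lower in cKO by 2-fold, and of 0.42 in MPP. Of all genes, 2.43% were higher and 2.65% lower by 2-fold in cKO MPP, and 10.7% higher and 8.26% lower in cKO LT-HSC. These lists are short, and their counts were not tested against those shares.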
